A study of Mus musculus with 6 samples.

Results

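Cytotoxic lymphocytes kill a target cell in 2 main ways. They release granules that hold perforin, which opens pores in the target membrane, and granzymes, serine proteases that enter through those pores and cut proteins of the target, or they display Fas ligand, which engages the death receptor Fas. In alopecia areata, an autoimmune hair loss, cytotoxic T cells and natural killer cells gather around hair follicles in growth. The disease can arise spontaneously in mice of the inbred strain C3H/HeJ.

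The 8 genes described here encode this killing equipment: the granzymes Gzma, Gzmb and Gzmk, the pore former Prf1, the granule membrane protein Nkg7, the lymphocyte cathepsin Ctsw, the cystatin Cst7 and the death ligand Fasl. They were chosen by name, as all probe sets (groups of array probes for 1 transcript) whose only symbol in the platform's annotation is 1 of these genes. That gave 10 probe sets of 45037 that are not controls, 2 each for Prf1 and Fasl and 1 for each other gene, and the genes are 8 of 18193 measured. All 6 mice were C3H/HeJ: 3 had alopecia areata and were sampled in affected alopecic skin, and 3 were unaffected, with 1 array per mouse. No treatment is named, and age, sex and body site were not stated in the labels. Values are log2 RMA values, so a difference of 1 is a doubling of signal, and differences are alopecic minus unaffected. A gene is said to have risen or fallen only where its adjusted p in limma, over all genes tested, was under 0.05.

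Unaffected replicate 3 stood apart from the other arrays over all genes. It lay at 99.3 on the first principal component, which held 52.7% of the variance, against -39.6 to -6.1 for the other 5 arrays, and its hair shaft and matrix markers, 10 of 11 measured, were lower there, by a median of 7.94 on the log2 scale, than the mean over unaffected replicates 1 and 2. The members' differences without this array follow below, and a list median is also given without it where its sign turned or its size moved by over 1.5 times. The array medians ran from 6.11 to 6.17, and a value near or below them is dim, with compressed differences. In bulk skin, fewer cells of a type and less RNA per cell cannot be told apart.

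All 8 genes were higher in alopecic skin, and in each the lowest alopecic array lay above the highest unaffected array. The differences ran from 0.37 for Fasl to 5.82 for Gzma, with a median of 1.48, against a median of -0.01 over all genes. None of the 8 passed the adjusted threshold in limma, which 0.264% of all genes passed as higher, and all 8 had an unadjusted p under 0.05, as 4.8% of all genes did in that direction. Groups that do not overlap with alopecic skin higher were found in 6.93% of all genes. Gzma and Gzmb came closest to the threshold, at adjusted p = 0.0576 and 0.0843, and the other 6 had adjusted p from 0.176 to 0.646. Without unaffected replicate 3 all 8 were higher, which the lack of overlap fixed in advance. Their median was 1.59, and 0 passed (smallest limma adjusted p = 0.131). The differences were then 5.72 for Gzma, 4.74 for Gzmb, 1.40 for Gzmk, 0.79 for Prf1, 2.16 for Nkg7, 1.78 for Ctsw, 1.03 for Cst7 and 0.45 for Fasl. Some other settings made calls among the members: Gzma and Gzmb with dim genes removed (0.671% of genes called) and with array weights (0.764%), Gzma with an intensity trend (0.33%) or without alopecic replicate 2 (0.077%), and Nkg7 without alopecic replicate 1 (0.181%). The dim filter uses the mean over all 6 arrays. Gzma and Gzmb stayed in through their alopecic values, as their unaffected means lay at percentiles 23.6 and 26.6 of all genes. Their calls under that filter are therefore no independent support.

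**Figure D1:**
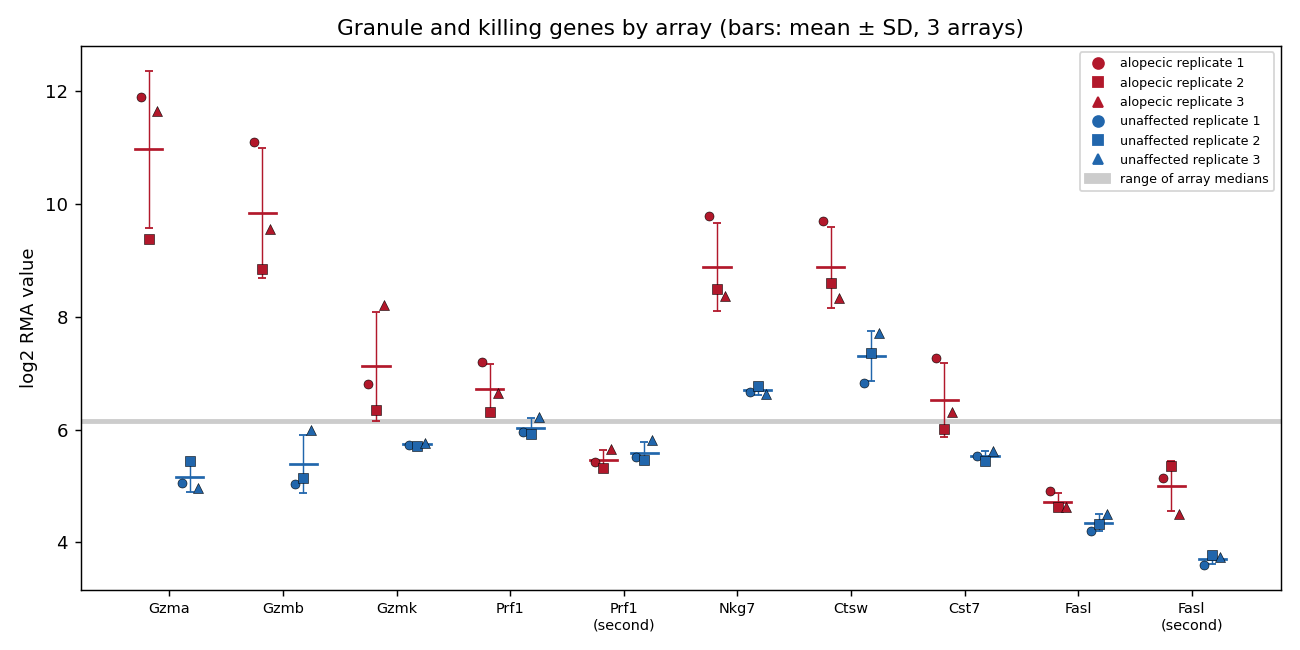
Log2 RMA value (y axis) of each probe set of the 8 genes (x axis) in the 3 alopecic arrays, in red on the left of each pair, and the 3 unaffected arrays, in blue on the right; bars are mean ± SD over 3 arrays, and the grey band is the range of array medians. Gzma runs from 9.37 to 11.89 in alopecic skin, against 4.97 to 5.44 in unaffected skin, while the groups overlap in the second probe set of Prf1.

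Granzyme A, a protease with trypsin-like specificity, showed the greatest separation of the 8. Gzma had log2 values of 11.89, 9.37 and 11.65 in alopecic replicates 1, 2 and 3, against 5.05, 5.44 and 4.97 in unaffected replicates 1, 2 and 3. All alopecic arrays were far above the array medians and all unaffected arrays below them, and 3.93 log2 units separated the nearest arrays of the groups. Its difference of 5.82 (SE 0.68, 95% interval 4.13 to 7.50), or 56.4-fold, ranked 3 of 18193 genes by size, while it ranked 54 by p-value and missed the threshold (limma adjusted p = 0.0576). The spread among alopecic mice was wide (SD 1.39, against 0.25 in unaffected mice, n = 3 each), with alopecic replicate 2 below the other alopecic arrays. Without alopecic replicate 2 the difference was 6.62 (SE 0.20, adjusted p = 0.00781), or 98.1-fold. With each other array left out it lay between 5.36 and 5.96, with adjusted p from 0.131 to 0.253. As the unaffected level is dim, the folds are not exact ratios.

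Granzyme B cuts after aspartate and triggers apoptosis through caspases and the protein Bid. Gzmb had log2 values of 11.10, 8.84 and 9.56 in alopecic replicates 1, 2 and 3, against 5.04, 5.15 and 5.99 in unaffected replicates 1, 2 and 3. Alopecic replicate 1 was highest and unaffected replicate 3 was the highest of its group, with 2.85 log2 units between the nearest arrays. The difference was 4.44 (SE 0.61, 95% interval 2.93 to 5.96), or 21.7-fold, and ranked 11 by size (adjusted p = 0.0843). It was 4.74 without unaffected replicate 3 (adjusted p = 0.131) and 3.81 without alopecic replicate 1 (adjusted p = 0.0836).

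Granzyme K, another trypsin-like granzyme, followed a different order among the alopecic mice. Gzmk had log2 values of 6.81, 6.35 and 8.21 in alopecic replicates 1, 2 and 3, against 5.73, 5.71 and 5.77 in unaffected replicates 1, 2 and 3. Replicate 3 was its highest alopecic array, whereas replicate 1 was the highest for the other 7 genes, and the unaffected arrays spanned 0.06 log2 units. The difference was 1.38 (SE 0.47, adjusted p = 0.613), or 2.61-fold. It was 0.84 without alopecic replicate 3 (adjusted p = 0.575). Across the 6 arrays Gzmk had a Pearson correlation of 0.676 with the mean standardised level of the other 7 genes, where those 7 genes had correlations between 0.938 and 0.992 with the mean of their own others; these describe 6 arrays in 2 groups and are given without a test.

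Perforin was measured by 2 probe sets, and they disagreed. The brighter probe set of Prf1 had log2 values of 7.20, 6.32 and 6.65 in alopecic replicates 1, 2 and 3, against 5.95, 5.92 and 6.23 in unaffected replicates 1, 2 and 3. The nearest arrays of the groups, alopecic replicate 2 and unaffected replicate 3, were 0.10 apart. The difference was 0.69 (SE 0.25, adjusted p = 0.632), or 1.62-fold, and it was 0.45 without alopecic replicate 1 (adjusted p = 0.591). The dimmer probe set had 5.42, 5.32 and 5.65 in alopecic skin, against 5.51, 5.46 and 5.81 in unaffected skin. Its groups overlapped, all 6 values lay below the array medians, and its difference was -0.13 (95% interval -0.49 to 0.23, limma adjusted p = 0.921 over all probe sets). The direction given for Prf1 therefore rests on 1 of its 2 probe sets, and with both averaged the difference was 0.28 (SE 0.17, adjusted p = 0.864).

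Nkg7 encodes a granule membrane protein of T and natural killer cells that takes part in granule release. It had log2 values of 9.78, 8.50 and 8.36 in alopecic replicates 1, 2 and 3, against 6.66, 6.78 and 6.64 in unaffected replicates 1, 2 and 3. The unaffected arrays spanned only 0.14 log2 units, and the nearest arrays of the groups lay 1.58 apart. The difference was 2.19 (SE 0.39, 95% interval 1.23 to 3.14), or 4.55-fold (adjusted p = 0.176). When its highest array, alopecic replicate 1, was left out, the difference was 1.73 with a smaller error (SE 0.12) and passed the threshold (adjusted p = 0.0409). With each other array left out it lay between 2.16 and 2.45, with adjusted p from 0.274 to 0.494.

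Ctsw encodes cathepsin W, a papain-family protease found in cytotoxic lymphocytes, and Cst7 encodes cystatin F, an inhibitor of lysosomal cysteine proteases that include the granzyme activator cathepsin C. Ctsw had log2 values of 9.69, 8.60 and 8.34 in alopecic replicates 1, 2 and 3, against 6.83, 7.36 and 7.71 in unaffected replicates 1, 2 and 3. Its unaffected arrays spanned 0.88 log2 units, with replicate 1 lowest, and all 3 lay above the array medians. The difference of Ctsw was 1.58 (SE 0.41, adjusted p = 0.467), or 2.98-fold. Cst7 had log2 values of 7.27, 6.01 and 6.31 in alopecic replicates 1, 2 and 3, against 5.53, 5.45 and 5.63 in unaffected replicates 1, 2 and 3. The groups were 0.38 apart, and alopecic replicate 1 stood above both other alopecic arrays. The difference of Cst7 was 0.99 (SE 0.33, adjusted p = 0.611), or 1.98-fold, and without alopecic replicate 1 it was 0.62 (adjusted p = 0.431).

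Fas ligand was dim on every array, and its 2 probe sets gave differences of unequal size. The brighter probe set of Fasl had log2 values of 4.91, 4.63 and 4.63 in alopecic replicates 1, 2 and 3, against 4.21, 4.33 and 4.51 in unaffected replicates 1, 2 and 3. The groups were separated by 0.12, and the difference was 0.37 (SE 0.14, adjusted p = 0.646), or 1.30-fold. The other probe set had 5.15, 5.35 and 4.51 in alopecic skin, against 3.60, 3.78 and 3.75 in unaffected skin. There the nearest arrays were 0.72 apart and the difference was 1.29 (SE 0.23, 95% interval 0.72 to 1.86), or 2.45-fold, which missed the threshold over all probe sets (adjusted p = 0.247). Both probe sets were higher in every alopecic array, and all 12 values lay below the array medians. With both averaged the difference of Fasl was 0.83 (SE 0.16, limma adjusted p = 0.216). Over all 10 member probe sets 0 passed at an adjusted p under 0.05, as 0.142% of all probe sets did, and 9 of 10 were higher with an unadjusted p under 0.05, against 3.65% of all probe sets.

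**Figure D2:**
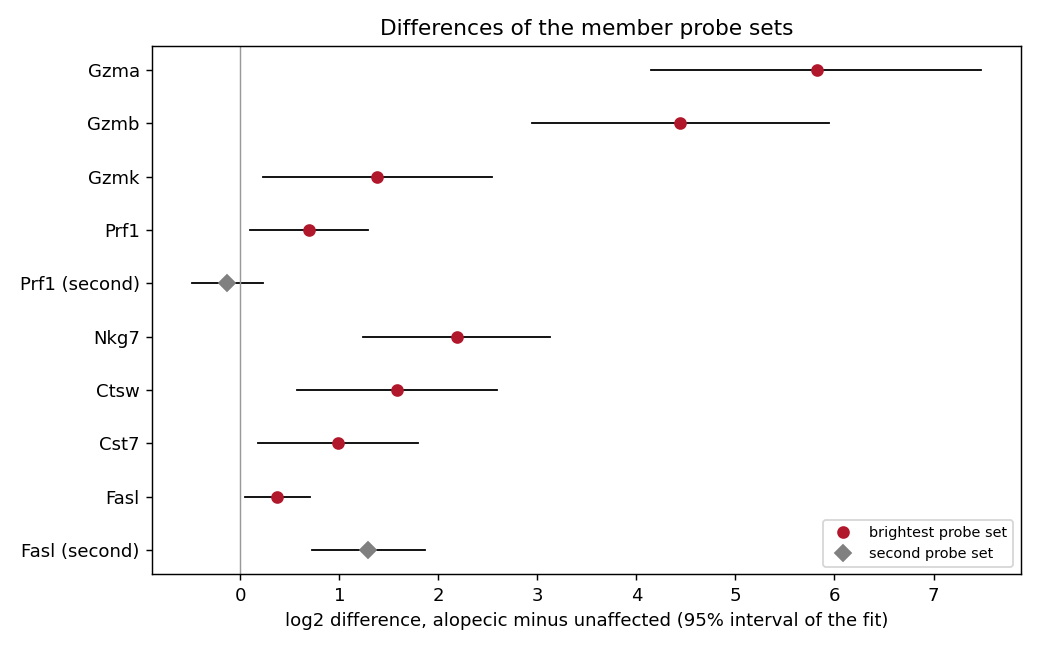
Log2 difference, alopecic minus unaffected (x axis), of the 10 probe sets of the 8 genes (y axis), with the 95% interval of the limma fit over all probe sets; red circles are the brightest probe set of a gene and grey diamonds the second. Gzma at 5.82 and Gzmb at 4.44 lie apart from the others, and the second probe set of Prf1, at -0.13, is the 1 below 0.

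Alopecic replicate 1 was highest for 7 of the 8 genes. Of the other alopecic arrays, replicate 3 was above replicate 2 for Gzma, Gzmb, Prf1 and Cst7 and below it for Nkg7 and Ctsw. The mean standardised level of the 8 (each gene scaled to mean 0 and SD 1 over the 6 arrays) was 1.38, 0.26 and 0.71 in alopecic replicates 1, 2 and 3, against -0.96, -0.83 and -0.57 in unaffected replicates 1, 2 and 3. The 7 pan-leukocyte markers had a mean log2 level of 10.66, 9.40 and 9.52 in alopecic replicates 1, 2 and 3, against 8.54, 8.66 and 8.17 in unaffected skin, with alopecic replicate 1 highest, as it was in the mean of the T cell markers. Laptm5, a lysosomal membrane protein of blood cells, differed by 1.72 (SE 0.28, adjusted p = 0.134) and Cd52, a surface glycoprotein of leukocytes, by 1.85 (SE 0.49, adjusted p = 0.474). The part that the number of leukocytes has in the members' differences was not tested.

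**Figure D3:**
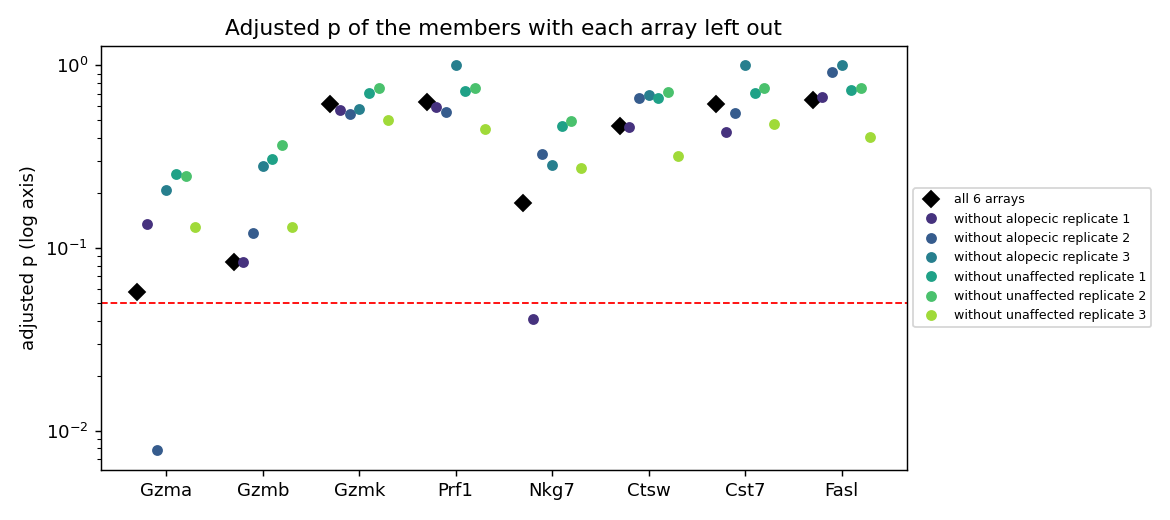
Adjusted p from limma (y axis, log scale) of each of the 8 genes (x axis) with all 6 arrays (black diamonds) and with each array left out (coloured circles); the dashed line is 0.05. The 2 points under the line are Gzma without alopecic replicate 2 (0.00781) and Nkg7 without alopecic replicate 1 (0.0409).

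The members were higher together, and the 250 bases before the annotated start of each gene were searched for motifs of factors that act in lymphocytes. RefSeq windows of GRCm38.p6 were found for 7 of the 8 genes, and Ctsw had none. The windows of the 3 genes with the largest differences are printed 5′ to 3′ on the gene's strand, with capitals marking the motifs found. They lie at chr13:113100982-113101231 on the minus strand for Gzma, at chr14:56262335-56262584 on the minus strand for Gzmb and at chr7:43436888-43437137 on the plus strand for Nkg7.
Gzma: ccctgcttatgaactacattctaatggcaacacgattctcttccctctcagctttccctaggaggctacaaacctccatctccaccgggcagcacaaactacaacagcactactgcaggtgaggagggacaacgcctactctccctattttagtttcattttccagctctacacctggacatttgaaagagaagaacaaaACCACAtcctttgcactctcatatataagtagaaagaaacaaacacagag
Gzmb: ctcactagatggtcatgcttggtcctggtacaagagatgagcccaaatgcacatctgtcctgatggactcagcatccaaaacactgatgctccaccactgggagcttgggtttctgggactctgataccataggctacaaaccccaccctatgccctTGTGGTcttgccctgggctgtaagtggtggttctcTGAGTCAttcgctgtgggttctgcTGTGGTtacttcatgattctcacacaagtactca
Nkg7: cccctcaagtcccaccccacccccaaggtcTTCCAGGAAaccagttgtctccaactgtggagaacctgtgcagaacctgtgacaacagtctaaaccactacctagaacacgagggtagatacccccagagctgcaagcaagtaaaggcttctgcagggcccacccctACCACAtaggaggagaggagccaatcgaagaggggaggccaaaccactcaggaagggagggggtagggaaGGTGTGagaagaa
The motifs, searched on both strands, were the RUNX core TGTGGT, the T-box core GGTGTG, the AP-1 motif TGANTCA, the cyclic AMP response half-site TGACGT and the STAT motif TTCNNNGAA; the letters of the printed hits do not overlap. With the base before the start counted as -1, Gzmb held RUNX cores at -93 to -88 and at -34 to -29, with an AP-1 motif between them at -58 to -52. Gzma held a RUNX core on the opposite strand at -50 to -45, and Nkg7 held a RUNX core on the opposite strand at -83 to -78, a T-box core on the gene's strand at -13 to -8 and a STAT motif at -220 to -212. The RUNX core was present in 5 of the 7 windows (Gzma, Gzmb, Prf1, Nkg7 and Cst7), against 14.0% of the 32851 windows of the table. The T-box core was in 3 of 7 (Gzmk, Nkg7 and Fasl), against 16.3% of windows. The AP-1, half-site and STAT motifs were each in 1 of 7, in Gzmb, Prf1 and Nkg7, against 6.75%, 6.47% and 7.02% of windows. These are matches of letters and were not tested as binding sites.

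Other genes of the same pathway were counted from lists. Of 15 measured genes for other granule contents 0 rose or fell, 10 were higher, and the median log2 difference was 0.18, or 0.06 without unaffected replicate 3. Gzmc, a granzyme of activated mouse lymphocytes, had log2 values of 8.88, 5.77 and 8.19 in alopecic replicates 1, 2 and 3, against 4.74, 6.32 and 4.18 in unaffected skin. Its groups overlapped through alopecic replicate 2 and unaffected replicate 2, and its difference was 2.54 (SE 0.95, adjusted p = 0.656). Crtam, an adhesion receptor of activated cytotoxic lymphocytes rather than a granule content, is also in the list of cytotoxic T cell markers. Its difference was 0.83 (SE 0.24, limma adjusted p = 0.532). Srgn, the proteoglycan on which granzymes are packed, differed by 0.64 (SE 0.59, adjusted p = 0.872) and the lysosomal membrane protein Lamp2 by 0.24 (SE 0.10, adjusted p = 0.731). The other granzymes differed little: Gzmd, Gzme, Gzmf, Gzmg, Gzmm and Gzmn, named after their values were seen, had differences between -0.29 and 0.25, with adjusted p from 0.836 to 0.963.

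The list of granzyme processing and inhibitors held the 1 pathway gene that rose. Serpinb9 encodes an intracellular serpin that inhibits granzyme B and protects cells from it. It had log2 values of 9.04, 8.42 and 8.38 in alopecic replicates 1, 2 and 3, against 6.67, 6.44 and 6.32 in unaffected replicates 1, 2 and 3. The groups were 1.70 apart, and Serpinb9 rose by 2.14 (SE 0.22), or 4.39-fold (adjusted p = 0.0363). Its second probe set differed by 1.81 (95% interval 1.54 to 2.08, adjusted p = 0.0115 over all probe sets). With 1 array left out the difference lay between 1.92 and 2.25, and it passed only without alopecic replicate 1 (adjusted p = 0.0475), with adjusted p from 0.092 to 0.208 otherwise. Of the 12 measured genes of this list 1 rose and 0 fell, and the median was 0.03, or -0.07 without unaffected replicate 3.

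Granule release and the events in the target cell showed no gene past the threshold. Of 20 genes of granule exocytosis 15 were higher, with a median of 0.11. Its largest differences were those of Coro1a, an actin regulator of leukocytes that is also in the pan-leukocyte list, at 1.81 (SE 0.29, adjusted p = 0.131), of Stx11, a syntaxin needed for granule release, at 1.11 (SE 0.19, adjusted p = 0.153) and of Dock2, a Rac activator of leukocytes, at 1.02 (SE 0.41, adjusted p = 0.692), and its brightest member, Arf6, a small GTPase of membrane traffic, differed by 0.26 (SE 0.15, adjusted p = 0.836). Other probe sets differed by 1.39 and 0.62 for Coro1a, by 1.10 for Stx11 and by 0.07 and 0.67 for Dock2. The brightest probe set of Stx11 did not overlap between the groups, with 7.80, 7.50 and 7.36 in alopecic replicates 1, 2 and 3, against 6.74, 6.36 and 6.24 in unaffected skin. Of 15 measured apoptosis executors 10 were higher, with a median of 0.08, or 0.18 without unaffected replicate 3. Bak1, a pore protein of the mitochondrial membrane, had 7.96, 8.32 and 8.62 in alopecic skin, against 6.70, 6.89 and 6.72 in unaffected skin, a difference of 1.53 (SE 0.19, adjusted p = 0.0599), while its dim second probe set differed by -0.03. Bid, which granzyme B cuts, differed by 0.93 (SE 0.28, adjusted p = 0.552), and by 0.26 and 0.12 in its dimmer probe sets. Hmgb2, a chromatin protein cut by granzyme A, differed by 0.80 (SE 0.57, adjusted p = 0.859) and the brightest member, Cycs, which encodes cytochrome c, by 0.08 (SE 0.22, adjusted p = 0.955).

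The lymphotoxins and TRAIL had the largest differences among other ligands and receptors of cell death. Of 12 measured death ligands, receptors and adaptors 0 rose or fell, 11 were higher and 7 were higher with no overlap between the groups, as 6.93% of all genes were, with a median of 0.50. Ltb, which encodes lymphotoxin beta, had 10.31, 9.02 and 9.39 in alopecic replicates 1, 2 and 3, against 6.40, 6.92 and 6.28 in unaffected skin, a difference of 3.04 (SE 0.37, adjusted p = 0.0599). Tnfsf10, which encodes the death ligand TRAIL, had 9.58, 9.51 and 8.87 in alopecic skin, against 6.42, 6.17 and 7.88 in unaffected skin, a difference of 2.49 (SE 0.49, adjusted p = 0.237). Unaffected replicate 3 was the high array of that group, and without it Tnfsf10 differed by 3.02 and passed (adjusted p = 0.0332). Lta, lymphotoxin alpha, differed by 1.39 (SE 0.36, adjusted p = 0.445) and the receptor Tnfrsf1a by 0.10 (SE 0.10, adjusted p = 0.877). Fas, the receptor of Fas ligand, named after its values were seen, had 7.63, 7.12 and 6.65 in alopecic replicates 1, 2 and 3, against 6.93, 6.87 and 7.96 in unaffected skin, and its groups overlapped (difference -0.12, SE 0.39, adjusted p = 0.964).

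Of 16 measured transcription factors linked to cytotoxic lymphocytes 0 rose or fell, 14 were higher and the median was 0.34, or 0.19 without unaffected replicate 3. Ikzf3, a lymphocyte factor of the Ikaros family, had 7.86, 6.54 and 6.81 in alopecic replicates 1, 2 and 3, against 4.77, 4.94 and 4.76 in unaffected skin, a difference of 2.25 (SE 0.35, adjusted p = 0.123). Without alopecic replicate 1 it differed by 1.85 and passed (adjusted p = 0.0475). Its other 2 probe sets, both dim, differed by 0.15 and 0.07. Tbx21, which encodes T-bet, an activator of interferon gamma and granzyme genes, had 7.16, 6.80 and 6.23 in alopecic skin, against 5.01, 5.25 and 5.21 in unaffected skin, a difference of 1.57 (SE 0.25, adjusted p = 0.126). Runx3, which acts in cytotoxic T cells and also in other cells of skin, differed by 0.93 (SE 0.29, adjusted p = 0.575) and by -0.14 in its dimmer probe set. Id2, the brightest member, differed by 0.37 (SE 0.20, limma adjusted p = 0.807), and by 0.09 and 0.07 in its other probe sets. Eomes, the T-box factor of natural killer and memory cells, named after its values were seen, was dim on all arrays and differed by 0.21 (SE 0.15, adjusted p = 0.859).

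**Figure D4:**
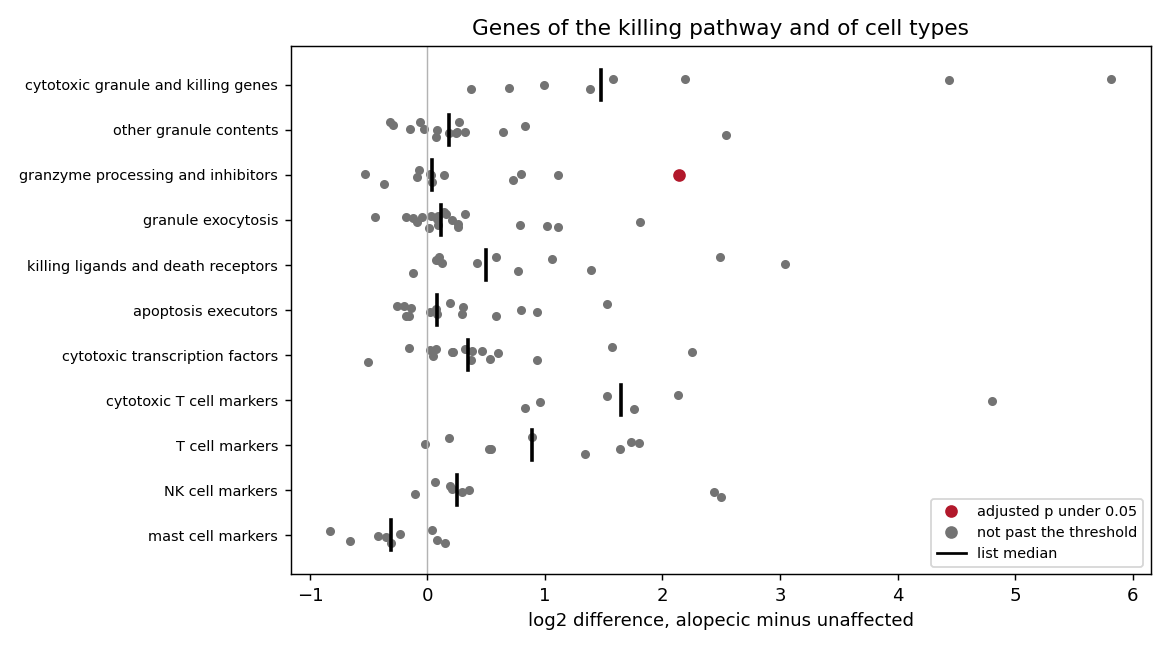
Log2 difference, alopecic minus unaffected (x axis), of each measured gene in the lists of the killing pathway and of cell types (y axis); black bars are list medians and the red point, Serpinb9 at 2.14, is the 1 gene past the threshold. The median is 1.48 for the 8 granule and killing genes, 1.64 for cytotoxic T cell markers and -0.31 for mast cell markers.

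Markers of the cells that can carry granzymes were set beside the members. All 6 cytotoxic T cell markers were higher with no overlap between the groups, as 6.93% of all genes were (median 1.64), at a mean level of 8.24, 6.74 and 6.97 in alopecic replicates 1, 2 and 3, against 5.21, 5.46 and 5.28 in unaffected skin. Ccl5, a chemokine made by effector T cells, differed by 4.80 (SE 0.58, adjusted p = 0.0599) and the co-receptor Cd8a by 1.76 (SE 0.36, adjusted p = 0.266). The other 4 probe sets of Cd8a differed by 3.83, 1.95, 0.39 and 0.38, with adjusted p from 0.142 to 0.758 over all probe sets. Of 9 measured T cell markers 8 were higher (median 0.89), with mean levels of 6.74 to 7.60 in alopecic skin, against 6.03 to 6.23 in unaffected skin, and Cd3g and Cd3e, chains of the T cell receptor complex, differed by 1.64 (SE 0.43) and 0.52 (SE 0.15). Of 8 measured natural killer cell markers 7 were higher (median 0.25, or 0.16 without unaffected replicate 3), with mean levels of 6.09 to 6.89 in alopecic skin, against 5.62 to 5.74 in unaffected skin. Tyrobp and Fcer1g, adaptors shared with myeloid cells, differed by 0.29 (SE 0.50) and 0.35 (SE 0.53). Chosen after their values were seen, Klrc1 and Klrd1, which form the NKG2A and CD94 receptor of natural killer and CD8 T cells, differed by 2.50 (SE 0.35, adjusted p = 0.0917) and 2.44 (SE 0.31, adjusted p = 0.0658), while Ncr1, a defining receptor of natural killer cells, was dim throughout, with 4.74, 4.50 and 4.50 in alopecic skin, against 4.38, 4.47 and 4.32 in unaffected skin.

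Granzyme B is also known from mast cells and, in humans, from basophils and plasmacytoid dendritic cells. Of 9 mast cell markers 3 were higher (median -0.31, or -0.55 without unaffected replicate 3), with mean levels of 5.71 to 6.99 in alopecic skin, against 5.43 to 7.06 in unaffected skin. Cpa3, a mast cell protease, had 9.50, 5.81 and 6.74 in alopecic replicates 1, 2 and 3, against 9.38, 9.18 and 5.47 in unaffected skin, and Kit, the receptor of mast cells and pigment cells, differed by 0.15 (SE 0.80). The part of these cells in the Gzmb difference was not tested. The 4 measured basophil markers had a median of 0.00, or 0.01 without unaffected replicate 3, with mean levels of 4.85 to 5.01 in alopecic skin, against 4.86 to 5.02 in unaffected skin; Gata2 differed by 0.01 (SE 0.20) and Il4 by -0.11 (SE 0.14). Of 6 measured plasmacytoid dendritic cell markers 2 were higher, and the median was -0.20, or 0.12 without unaffected replicate 3. Their mean levels were 8.61 to 9.01 in alopecic skin, against 8.49 to 9.20 in unaffected skin. The 2 higher genes, Ly6d and Tcf4, which skin cells also express, differed by 0.40 (SE 0.29) and 0.40 (SE 0.18). The dim Siglech, named after its values were seen, differed by -0.34 (SE 0.15, limma adjusted p = 0.756). The 4 measured gamma delta T cell markers had a median of -0.05, or 0.04 without unaffected replicate 3, with Sox13 at 0.44 (SE 0.26) and Il17a at -0.13 (SE 0.16). None of the genes in these 4 lists had an unadjusted p under 0.05.

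Lists of other cells showed 0 genes past the threshold. The macrophage list had a median of 0.31 over 10 genes, or -0.07 without unaffected replicate 3, with mean levels of 8.12 to 10.09 in alopecic skin, against 7.93 to 9.58 in unaffected skin (Csf1r 0.10, SE 0.41; Lyz2 0.35, SE 0.63). Neutrophil markers had a median of -0.01 over 8 genes, or 0.13 without that array. Of these 8 genes 4 were higher, among them the 2 brightest, S100a8 (0.91, SE 0.61) and S100a9 (0.73, SE 0.99). B cell markers had a median of -0.03 over 7 genes, or 0.00 without that array, with Ighm at -0.06 (SE 0.49) and Blk at 0.01 (SE 0.09). Keratinocyte markers had a median of 0.05 over 8 genes, or 0.08 without that array, and Krt14 and Krt10 differed by 0.48 (SE 0.14, adjusted p = 0.522) and -0.30 (SE 0.33). Fibroblast markers had a median of 0.05 over 7 genes, or -0.31 without that array, with Col1a2 at -0.09 (SE 0.58) and Dcn at -0.47 (SE 0.25). The hair shaft keratin Krt33a and the inner root sheath keratin Krt25 had 5.09 and 5.77 in unaffected replicate 3, against at least 11.82 in every other array. The hair list's median was 0.48 over 10 genes, and -1.42 without that array.

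**Figure D5:**
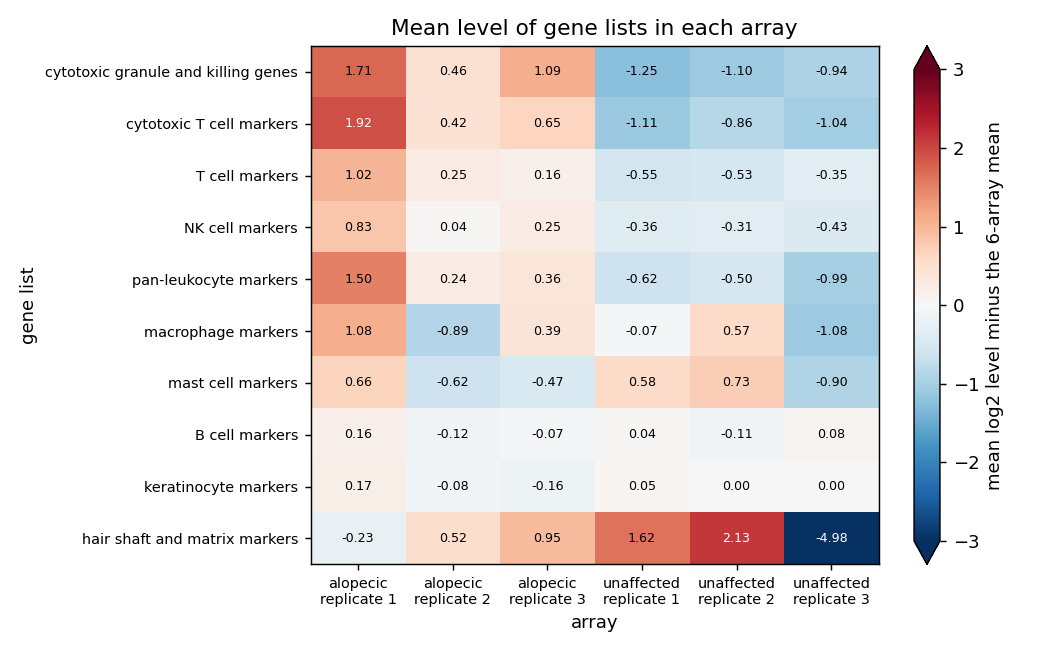
Mean log2 level of each gene list (rows) in each array (columns), minus the list's mean over the 6 arrays; colours are cut at 3 in either direction. The granule and killing genes have mean levels of 7.33 to 8.58 in alopecic arrays and 5.62 to 5.93 in unaffected arrays. Their groups do not overlap and alopecic replicate 1 is highest. The same holds for the cytotoxic T cell, T cell, natural killer cell and pan-leukocyte markers. The hair markers are low in unaffected replicate 3.

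The genes most like the 8 were sought among 3413 other genes with an SD over the 6 arrays of at least 0.5, by Pearson correlation with the mean standardised level over 6 arrays. The 8 closest were Itgb7, an integrin chain of lymphocytes (0.9974), Bcl2l15, a protein of the BCL2 family (0.9922), Alox12e, an epidermal lipoxygenase (0.9910), Klrd1 (0.9896), Kcnn4, a calcium-activated potassium channel (0.9894), Cxcl16, a chemokine for the receptor CXCR6 (0.9874), Batf2, a factor of the AP-1 family (0.9871), and Ptpn22, a phosphatase of lymphocyte signalling (0.9868). Itgb7 had 8.72, 7.67 and 8.14 in alopecic replicates 1, 2 and 3, against 6.67, 6.81 and 6.88 in unaffected replicates 1, 2 and 3. Their differences ran from 1.31 for Cxcl16 to 2.81 for Bcl2l15, and none passed the threshold (limma adjusted p from 0.0658 to 0.411). The 6 arrays fall into 2 groups, so any gene that separates them correlates highly, and the values describe likeness only.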

How the data were processed

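Total RNA of mouse skin was measured on 6 arrays, 3 of alopecic and 3 of unaffected mice. Per the labels' protocols, it was purified with a miRNeasy kit and labelled with a 3′ IVT kit. The authors deposited log2 values per array. RMA is named, without a version, in the submitters' processing notes; it corrects background and normalizes between arrays. The values were used as deposited.

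Symbols came from the platform annotation and were updated through RefSeq gene identifiers (34741 of 34945 probe sets with 1 symbol). Each gene was represented by its brightest probe set. Groups were compared with limma 3.58.1 in R 4.3.3 (lmFit, eBayes, two-sided, Benjamini-Hochberg over 18193 genes or 45037 probe sets, threshold 0.05), tested on simulated data. Errors are standard errors of the fit or SDs over 3 arrays, whose number limits the precision. Dim probe sets were kept. Of 228 list entries 201 were matched.

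Genes, lists and tests were chosen with earlier results of these data known. The text names all members, for each pathway list those past the threshold or else the 3 largest differences and the brightest gene, for each marker list the 2 brightest where none passed, and the 8 genes most like the members. Alternatives were probe set choice, a dim filter, variance models, array weights, normalization, a replicate block and leaving out each array.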

Additional observations from a re-analysis of the deposited data

How the results depend on the processing

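All 8 members kept their direction under each of the 15 alternatives in which they were measured. Several of these could not change it. The variance models, the dim filter, the replicate block and the test of each probe set on its own leave the difference of the brightest probe set as it was. In all 8 genes each alopecic array lay above each unaffected array. Leaving out an array or weighting the arrays therefore could not turn a sign either. The second probe set of Prf1, at -0.13, runs the other way. Gzma passed with the dimmer genes, those under the median mean, removed (5.82, adjusted p = 0.027), with an intensity trend (5.82, adjusted p = 0.0346) and with array weights (5.85, adjusted p = 0.0248), and Gzmb with the first of these (4.44, adjusted p = 0.0476) and with array weights (4.41, adjusted p = 0.0153). With single arrays left out, Gzma ran from 5.36 to 6.62, Gzmb from 3.81 to 4.94 and Nkg7 from 1.73 to 2.45. The number of members past the threshold was 0 as reported, 2 of 4 measured with the dim filter (0.671% of genes called), 1 with the trend (0.33%), 2 with array weights (0.764%) and 0 to 1 with 1 array left out (0.181% of genes called without alopecic replicate 1 and 0.077% without alopecic replicate 2). The number of member probe sets past it was 1 with dim probe sets left out (0.431% of all tested called), 1 with the trend (0.167%), 2 with array weights (0.415%) and 0 to 1 with 1 array left out (1 without alopecic replicate 2, 0.00444%). The number of genes past the threshold was 50 as reported, 139 with array weights and 4 to 39 with 1 array left out. With the replicate number as a block 0 genes passed in limma (873 at an unadjusted p under 0.05, smallest adjusted p of a member 0.337), and Serpinb9 missed the threshold too (adjusted p = 0.171). The sample titles give these numbers without naming a pairing of the mice. The deviations of same-numbered arrays from their group means correlated at -0.132, -0.197 and -0.33. These correlations cannot show whether mice were paired, and unaffected replicate 3 alone held 42.2% of the squared deviations. The dim filter tests fewer genes and keeps a gene by its mean over all 6 arrays. The 4 members it kept lay at percentiles 23.6 to 46.7 of all genes by unaffected mean. They stayed in through their alopecic values, so the calls under this filter are no independent support. The cause of the other changes was not tested. Signal over background limits Fasl, Prf1, Cst7 and Gzmk, which the dim filter removes.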

Other observations

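The members did not all follow the T cell markers to the same extent. When the mean of the 9 measured T cell markers was subtracted in each array, a comparison chosen after the values were seen, the relative log2 difference of Gzma was 4.86, that of Gzmb 3.49, that of Nkg7 1.23 and that of Ctsw 0.62, and in these 4 genes each alopecic array still lay above each unaffected array (exact two-sided permutation p = 0.1, the smallest that 3 against 3 arrays allow). The relative differences of Gzmk, Cst7 and Prf1 were 0.43, 0.03 and -0.26, with overlapping groups (exact two-sided permutation p = 1, 0.9 and 0.2). For Fasl the relative difference was -0.58, with each alopecic array below each unaffected array (exact two-sided permutation p = 0.1), but its second probe set turned the direction, with 0.33 and overlapping groups (exact two-sided permutation p = 0.3). The second probe set of Prf1 gave -1.09, with each alopecic array below each unaffected array (exact two-sided permutation p = 0.1). The 9 markers themselves differed by -0.02 (Cd28) to 1.80 (Cd3d). Cd28, Cd5 and Cd247 were dim on every array, and Cd2 and Cd6 were dim in unaffected skin. A relative difference therefore depends on the markers that are averaged. Ctsw, with a difference of 1.58, differed less than Cd3d alone. All values of Fasl and of the second Prf1 probe set are dim, which compresses their differences. So are the unaffected values of Gzma, Gzmb, Gzmk, Cst7 and the brighter Prf1 probe set. How far this moves the relative values was not tested.

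Signal at the 3′ and 5′ ends of 2 control transcripts differed between arrays. For beta-actin, the 3′ control probe set exceeded the 5′ set by log2 values of 0.47, 1.14 and 1.30 in alopecic replicates 1, 2 and 3, against 0.50, 1.24 and 0.39 in unaffected replicates 1, 2 and 3 (exact two-sided permutation p = 0.6). The same 3′ minus 5′ difference of Gapdh was -0.04, 0.44 and 0.52 in alopecic replicates 1, 2 and 3, against -0.08, 0.14 and 0.31 in unaffected replicates 1, 2 and 3 (exact two-sided permutation p = 0.4). Alopecic replicate 1 had the lowest value of its group for both. Their part in the spread among alopecic arrays was not tested.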
